A study of Mus musculus with 36 samples.

Results

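The comparison described here set the livers of 4 F/F mice against those of 4 W/F mice, all fed the MASH diet and all given T0901317. These 8 libraries belong to a series of 36, and every one of the 16638 expressed genes was compared, out of 49315 listed. The mice carry a CRISPR-made change of residue 441 of the liver X receptor alpha (LXRalpha) from tryptophan (W) to phenylalanine (F), so W/F mice kept 1 normal allele and F/F mice had none. Male mice aged 11 to 12 weeks received a high-fat, high-cholesterol diet that promotes metabolic dysfunction-associated steatohepatitis (MASH) for 4 weeks, with T0901317, a synthetic LXR agonist, at 10 mg/kg by daily gavage during the last 2 weeks. Another 3 groups of 4 mice on the same diet served as references: vehicle-treated W/W mice with 2 normal alleles, vehicle-treated W/F mice and vehicle-treated F/F mice. Where named, values are also given for mice of the same age fed normal chow, in groups of 4 per genotype. The same holds for 4 W/W mice given the MASH diet and T0901317. The question was which genes that differ from W/W on the diet are brought back by the agonist when 1 normal allele is present but not when none is. Whole liver was sampled, so each value sums over all cells of the organ.

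LXRalpha is a nuclear receptor that binds oxidised cholesterol and pairs with a retinoid X receptor on the DNA of its target genes. In the absence of ligand the pair recruits corepressors, and an agonist exchanges them for coactivators. In hepatocytes its targets include the sterol exporters and the programme of fatty acid synthesis, and in macrophages it is known both for sterol export and for restraint of inflammatory genes. Resident macrophages of the liver, the Kupffer cells, depend on LXRalpha for part of their identity.

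Expression was given in TPM, a gene's length-corrected share of the transcripts of its library. Sequencing depth, read back from steps between low values, was 21.3 to 35.8 M reads in the F/F libraries with T0901317 and 22.6 to 25.9 M reads in the W/F libraries. F/F libraries with T0901317 held 14570 ± 467 genes at 1 TPM or more and W/F libraries 12661 ± 465 (SD, n = 4 each). W/F replicate 2 stood apart from the other W/F libraries: on the first principal component of all 36 libraries it lay at 1.00, where the other 3 W/F libraries lay between 44.9 and 54.4 and the F/F libraries between -72.8 and -34.8. It was kept, and results that rest on it are also given without it. The labels place each mouse in a group but do not name litters, cages or sequencing runs, so no batch could be examined and p-values measure the spread between these libraries. The series text gives the symbol Nr1h2 for LXRalpha, whose usual symbol is Nr1h3.

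With T0901317, F/F and W/F livers differed in most expressed genes. Of the 16638 genes, 10409 (62.6%) were called different at an adjusted p under 0.05, with 9731 (58.5%) higher and 678 (4.08%) lower in F/F. The median gene was itself 0.43 higher in F/F on the log2 scale. TPM values sum to the same total in every library, and the top 100 genes accounted for 47.0% ± 1.90 of that total in F/F and 54.3% ± 2.86 in W/F (SD, n = 4 each). When libraries were rescaled with median-of-ratios factors, the median log2 difference was 0.03. Then 6689 genes (40.2%) were called, and 3616 genes (21.7%) were higher and 3073 (18.5%) lower, so the share of calls that were higher went from 93.5% to 54.1%. Genes that passed in both scalings with the same sign numbered 3616 higher (21.7%) and 676 lower (4.06%), and of these 947 higher (5.69%) and 173 lower genes (1.04%) differed by at least 2-fold. The 4 F/F values lay wholly above the 4 W/F values for 7712 genes (46.4%) and wholly below for 554 (3.33%). Log2 fold changes below are F/F minus W/F in the deposited scaling, followed by the rescaled value where one is given.

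**Figure D1:**
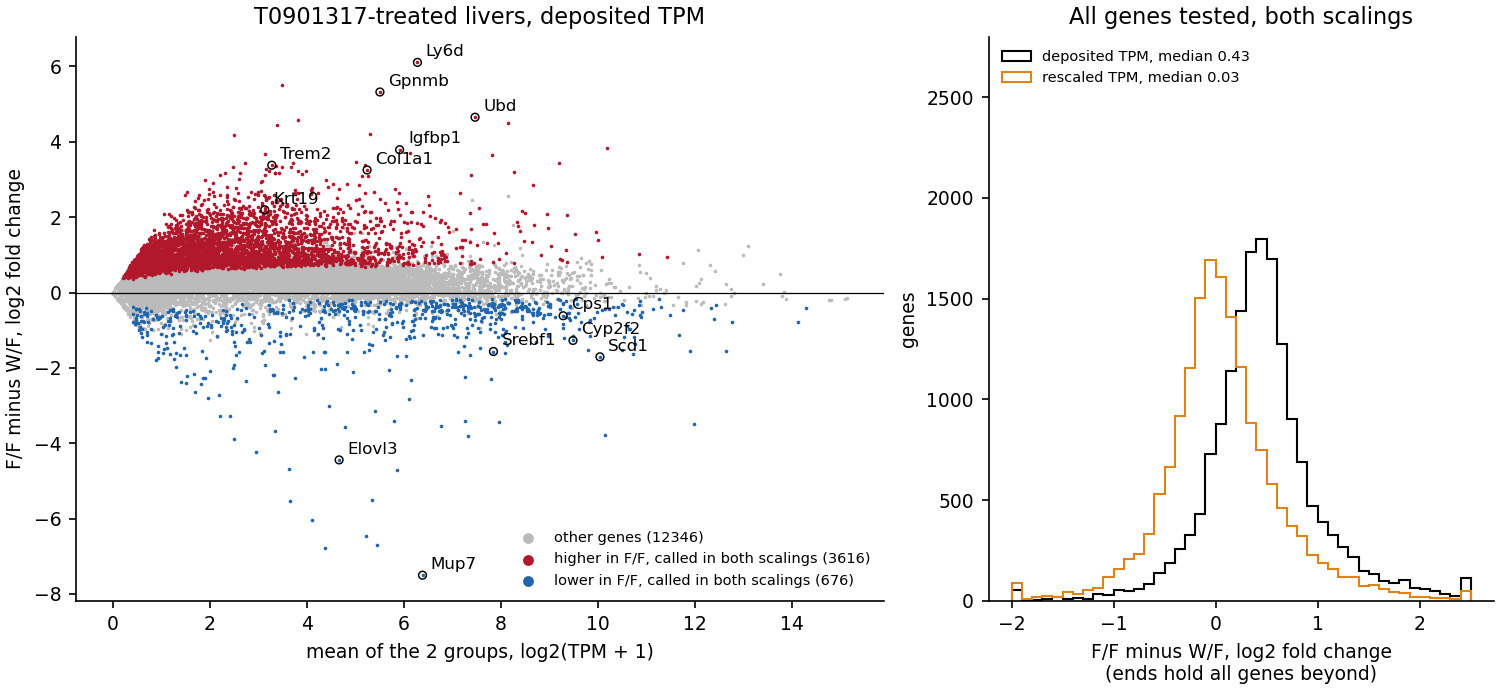
Left, log2 fold change of every tested gene (F/F minus W/F with T0901317, vertical axis) against its mean log2(TPM + 1) in both groups, with genes called in both scalings in colour. Right, number of genes by log2 fold change in both scalings: the deposited values are centred at 0.43 and the rescaled values at 0.03.

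Disease genes were defined from vehicle-treated mice alone, as genes that were at least 2-fold from W/W in the same direction in both W/F and F/F livers and were called in both scalings. There were 1498 raised and 327 lowered disease genes. For each, the share of the vehicle difference left with T0901317 was computed on the log2 scale, where 0 is the W/W vehicle level and 1 is the level of the same genotype on vehicle. Among raised genes the median share left was 0.158 in W/F (quartiles 0.0954 and 0.229) and 0.709 in F/F (quartiles 0.627 and 0.786), and the share was lower in W/F for 1494 of the 1498. Among lowered genes the medians were 0.183 in W/F and 0.674 in F/F, with a lower share in W/F for 311 of the 327. The shares of both genotypes use the same W/W vehicle libraries.

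Genes counted as normalised in W/F and not in F/F had a share left of at most 0.25 in W/F and at least 0.5 in F/F, and also differed between F/F and W/F with T0901317 by at least 2-fold in both scalings. By this rule 644 raised genes (43.0% of 1498) and 96 lowered genes (29.4% of 327) were normalised with 1 normal allele and not with none. No raised or lowered gene met the opposite rule. Of the raised disease genes 1459 (97.4%, against 58.5% of all genes) were called higher in F/F than in W/F with T0901317, and 1381 (92.2%, against 21.7%) after rescaling. Of the lowered disease genes 264 (80.7%, against 4.08% of all genes) were called lower, and 296 (90.5%, against 18.5%) after rescaling. Only 52 of the raised genes still differed from W/W vehicle in W/F livers with T0901317, where 1.01% of all genes were called. In F/F livers with T0901317 1483 still differed, where 65.0% of all genes were called. Because W/W vehicle was the reference, disease genes can include genotype differences already present on chow. With disease genes and shares taken against each genotype's own chow, 143 of 960 raised (14.9%) and 32 of 247 lowered genes (13.0%) met the rule. The median share left of those raised genes was then 0.229 in W/F and 0.510 in F/F.

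**Figure D2:**
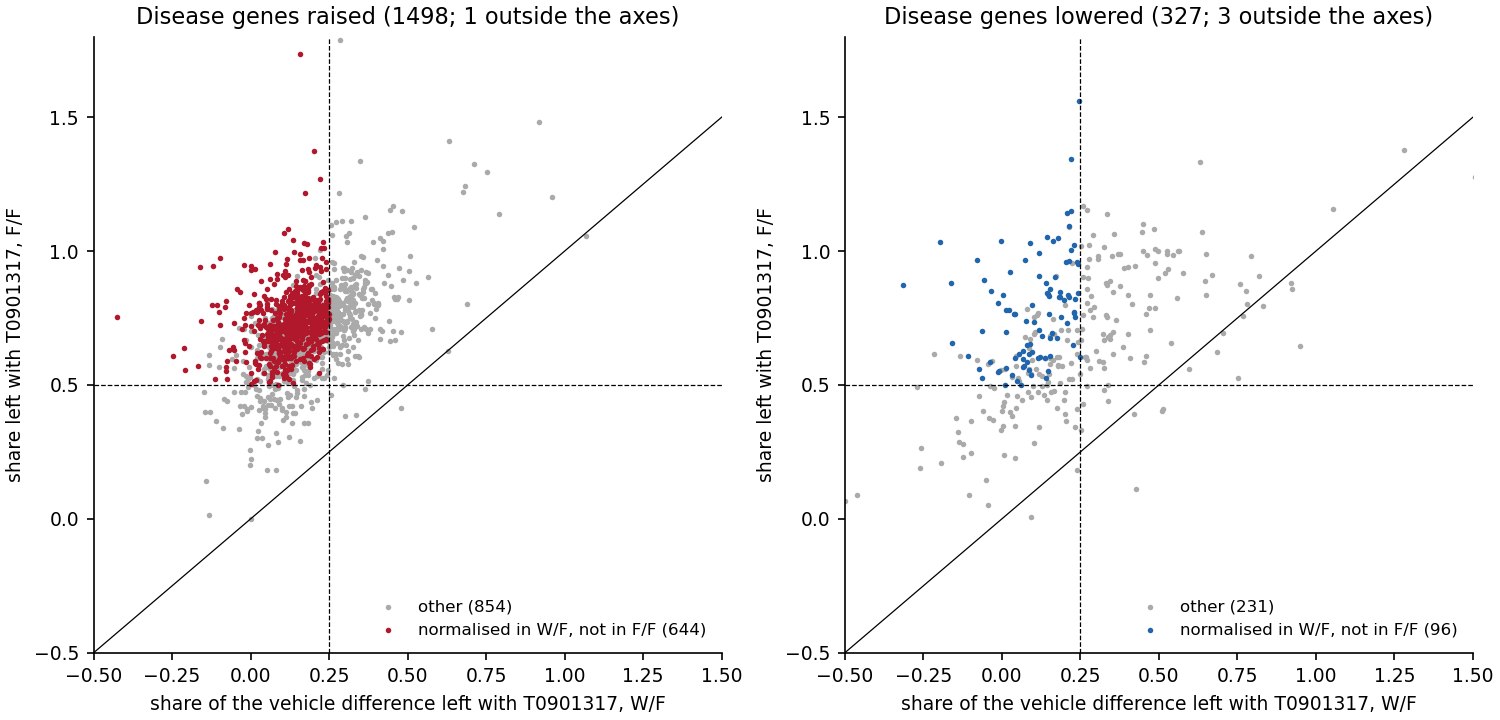
Share of the vehicle difference left with T0901317 in F/F (vertical) against W/F (horizontal) for each raised (left) and lowered (right) disease gene. Dashed lines mark 0.25 and 0.5, the solid line marks equal shares, and coloured points are the 644 raised and 96 lowered genes normalised in W/F and not in F/F.

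Library by library, the median share left over raised genes was 0.00465, 0.463, 0.0777 and 0.0624 in W/F replicates 1 to 4 and 0.815, 0.757, 0.568 and 0.687 in F/F replicates 1 to 4. All 4 F/F libraries lay above all 4 W/F libraries, and W/F replicate 2 lay closer to F/F replicate 3 than to the other W/F libraries. Over lowered genes the medians were 0.177, 0.352, 0.103 and 0.0437 in W/F and 0.717, 0.696, 0.567 and 0.739 in F/F, again without overlap. Without W/F replicate 2 the raised genes normalised in W/F and not in F/F numbered 943 and the lowered ones 122.

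**Figure D3:**
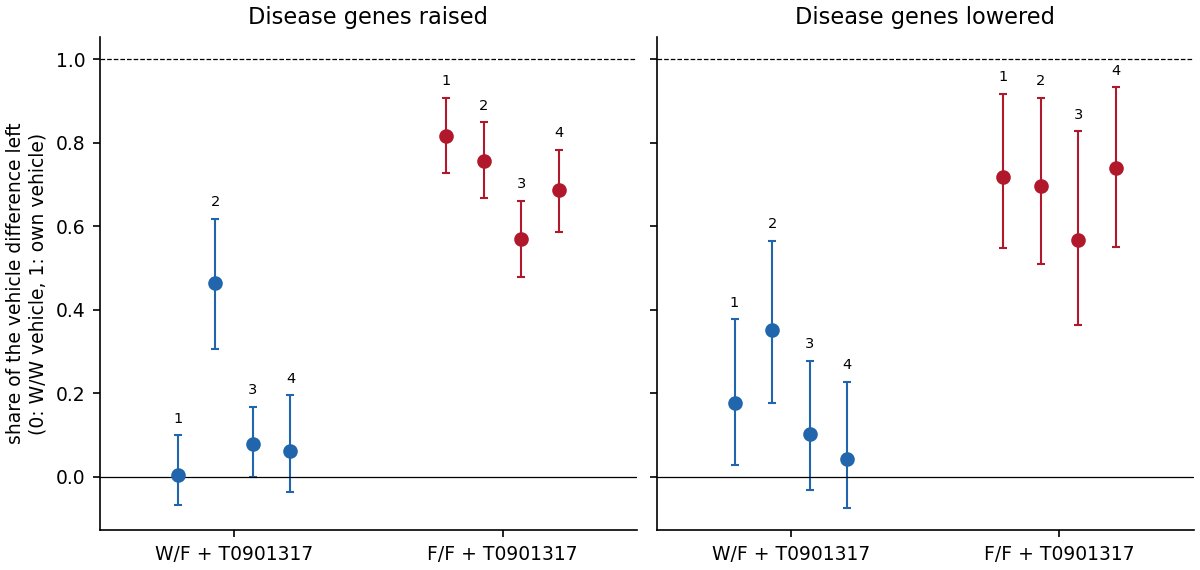
Median share of the vehicle difference left with T0901317 in each library (points, numbered by replicate) with the quartiles over genes (bars), for 1498 raised and 327 lowered disease genes. W/F replicate 2 is the highest W/F library in both panels, and the F/F libraries lie between 0.567 and 0.815.

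On vehicle the genotypes were closer. F/F differed from W/F in 3552 genes (21.3%) without T0901317, and in 1758 (10.6%) after rescaling. The median log2 difference of the raised disease genes was 0.41 on vehicle (0.22 rescaled) and 1.43 with T0901317 (1.06 rescaled). The difference of the T0901317 responses, F/F minus W/F, was tested directly as an interaction and was called for 3191 genes (19.2%), 2923 of them (17.6% of genes) with a higher response in F/F, and for 2401 genes (14.4%) after rescaling. In the deposited scaling 942 of the raised disease genes (62.9%, against 17.6% of all genes) were called with a higher response in F/F. Of the lowered ones 108 (33.0%) were called with a lower response in F/F, as were 268 of all 16638 genes. Without W/F replicate 1 the interaction was called for 1908 genes, and without W/F replicate 2 for 4127.

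Among the genes higher in F/F without overlap between the groups, the largest difference was in Ly6d. Ly6d, a lipid-anchored surface protein of epithelia and B cell precursors (chromosome 15, 74762056 to 74763620, minus strand, GRCm38), stood at 4.16, 32.1, 3.06 and 2.81 TPM in W/F replicates 1 to 4 and at 606, 519, 272 and 696 TPM in F/F. W/F replicate 2 was the highest of its group. The mean was 49.6-fold higher in F/F and the log2 fold change was 6.11 ± 0.51 (SE, adjusted p = 2.73e-10), or 5.63 rescaled. Among vehicle-treated livers, Ly6d averaged 597 TPM in W/F, 994 TPM in F/F and 4.17 TPM in W/W, so its share left was 0.08 in W/F and 0.88 in F/F. Chow-fed F/F livers already stood at 82.2 to 275 TPM for Ly6d.

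Others among the 10 largest increases ranged widely in their W/F level. Sprr1a, a small proline-rich protein of cornified epithelium, stood at 0 to 1.96 TPM in W/F livers and at 33.9 to 133 TPM in F/F livers (log2 fold change 5.52, rescaled 5.20). The imprinted fetal RNA H19 stood at 1.10 to 4.20 TPM in W/F livers and at 55.0 to 78.1 TPM in F/F livers (4.58, rescaled 4.15). Cpe, a carboxypeptidase that processes prohormones, stood at 0.407 to 3.42 TPM in W/F livers and at 23.2 to 73.2 TPM in F/F livers (4.45, rescaled 4.08). Lack of overlap between the groups was a condition for the 10 largest increases, so it is no result for these genes. Ubd, a ubiquitin-like protein induced by inflammatory cytokines, stood at 5.89, 251, 9.07 and 4.49 TPM in W/F livers and at 609, 533, 349.8 and 336 TPM in F/F livers. W/F replicate 2 came close to the F/F range for Ubd, and the log2 fold change of 4.65 was 5.93 without it. Igfbp1, a secreted binder of insulin-like growth factors made by hepatocytes, stood at 11.3 to 20.7 TPM in W/F livers and at 172 to 277 TPM in F/F livers (3.79, rescaled 3.27), and here W/F replicate 2 was the lowest library. Chow-fed F/F livers already stood at 184 to 334 TPM for Igfbp1, 19.4 to 310 TPM for Sprr1a, 17.4 to 152 TPM for H19 and 9.14 to 59.2 TPM for Cpe. For Ubd they stood at 31.1 to 75.7 TPM. Sult2a2, Gstm3 and Gm11843 were also among the 10 largest increases, and 62.1%, 28.8% and 26.3% of their exon sequence also occurs in other genes, which leaves their values uncertain.

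Counts of list members are read against all genes, of which 58.5% were higher and 4.08% lower in the deposited scaling and 21.7% and 4.06% in both scalings. Of 22 LXR target genes tested, 8 were higher (36.4%, beside 58.5%) and 7 lower (31.8%, beside 4.08%) in F/F. In both scalings 5 were higher (22.7%, beside 21.7%) and 7 lower (31.8%, beside 4.06%). The higher share was thus below or near that of all genes, and the lower share was above it. The median log2 fold change was -0.13 (rescaled -0.66) beside 0.43 (rescaled 0.03) for all genes. On vehicle the median of these targets was already -0.42 (rescaled -0.61). The interaction was called for 11 of the 22, all 11 with a higher response in F/F, as it was for 17.6% of all genes. Srebf1, the transcription factor that drives fatty acid synthesis, stood at 470, 341, 360.3 and 413 TPM in W/F livers and at 145, 146, 122 and 117 TPM in F/F livers. The groups did not overlap, and the log2 fold change was -1.57 ± 0.22 (SE, adjusted p = 6.87e-07), or -2.10 rescaled. On vehicle Srebf1 already stood lower in F/F, at 22.5 to 26.6 TPM against 49.9 to 80.6 TPM in W/F. Its interaction was not called (-0.24, adjusted p = 0.608). The hepatic sterol exporters Abcg5 and Abcg8, which form a single transporter into bile, were lower by log2 fold changes of -0.85 and -0.94 (rescaled -1.38 and -1.47). Neither interaction was called (0.02 and -0.50, adjusted p = 0.979 and 0.379). Abcg1, a sterol exporter abundant in macrophages, went the other way, from 9.27, 31.8, 12.8 and 12.5 TPM in W/F to 57.0, 52.6, 36.9 and 41.5 TPM in F/F. All F/F livers lay above all W/F livers for Abcg1 (log2 fold change 1.58, rescaled 1.07, adjusted p = 2.16e-06).

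Mylip, an LXR-induced ubiquitin ligase, was higher in F/F (1.15, rescaled 0.65). The other LXR target genes higher in both scalings were Scd2, Lpl and Arl4c, and the other lower ones included Scd1, Fasn and Apoc1. Of these 6, all but Scd1 and Fasn were named after their values were seen. Abca1, the exporter that loads cholesterol onto apolipoprotein A1, was 0.50 higher in the deposited scaling and -0.02 after rescaling, with the sign changed by the scaling. Lpcat3, a phospholipid acyltransferase, was called only after rescaling (-0.06, rescaled -0.59). The receptor gene Nr1h3 stood at 82.0 to 106 TPM in W/F livers and at 90.3 to 102 TPM in F/F livers, with overlap, a log2 fold change of 0.01 and a rescaled value of -0.52. A change of a single residue cannot be checked from these levels. The related receptor gene Nr1h2 was 0.54 higher (rescaled 0.02) and the partner Rxra was called only after rescaling (-0.05, rescaled -0.58).

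Of 25 genes of fatty acid and triglyceride synthesis tested, 7 were lower in both scalings and 2 higher. Scd1, the desaturase that makes oleic acid, stood at 2253, 1810, 1704 and 1834 TPM in W/F livers and at 491, 697, 559 and 583 TPM in F/F livers, without overlap (log2 fold change -1.71, rescaled -2.24, adjusted p = 1.63e-05). Its response to T0901317 was larger in F/F, from 13.1 TPM on vehicle, than in W/F, from 514 TPM on vehicle (interaction 3.44 on the log2 scale, adjusted p = 5.77e-06). In both genotypes Scd1 stayed below the 7896 TPM of vehicle-treated W/W livers, with shares left of 0.51 in W/F and 0.41 in F/F. Fasn, the fatty acid synthase, stood at 53.5 to 94.7 TPM in W/F livers and at 16.6 to 27.8 TPM in F/F livers (-1.52, rescaled -2.04). Elovl6, which extends palmitate, stood at 17.2 to 43.0 TPM in W/F livers and at 9.37 to 14 TPM in F/F livers (-1.11, rescaled -1.61) and was normalised in W/F and not in F/F. Pnpla3, a lipid droplet acylhydrolase, stood at 1.38 to 2.79 TPM in W/F livers and at 0.536 to 2.01 TPM in F/F livers and was not called (-0.51).

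Among 31 genes of cholesterol synthesis and uptake, 3 were higher and 2 lower in both scalings, and 20 were not called in the deposited scaling. Sqle, squalene epoxidase, was 0.78 higher (rescaled 0.40). Of 17 lipid droplet genes 4 were higher and 3 lower in both scalings.

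**Figure D4:**
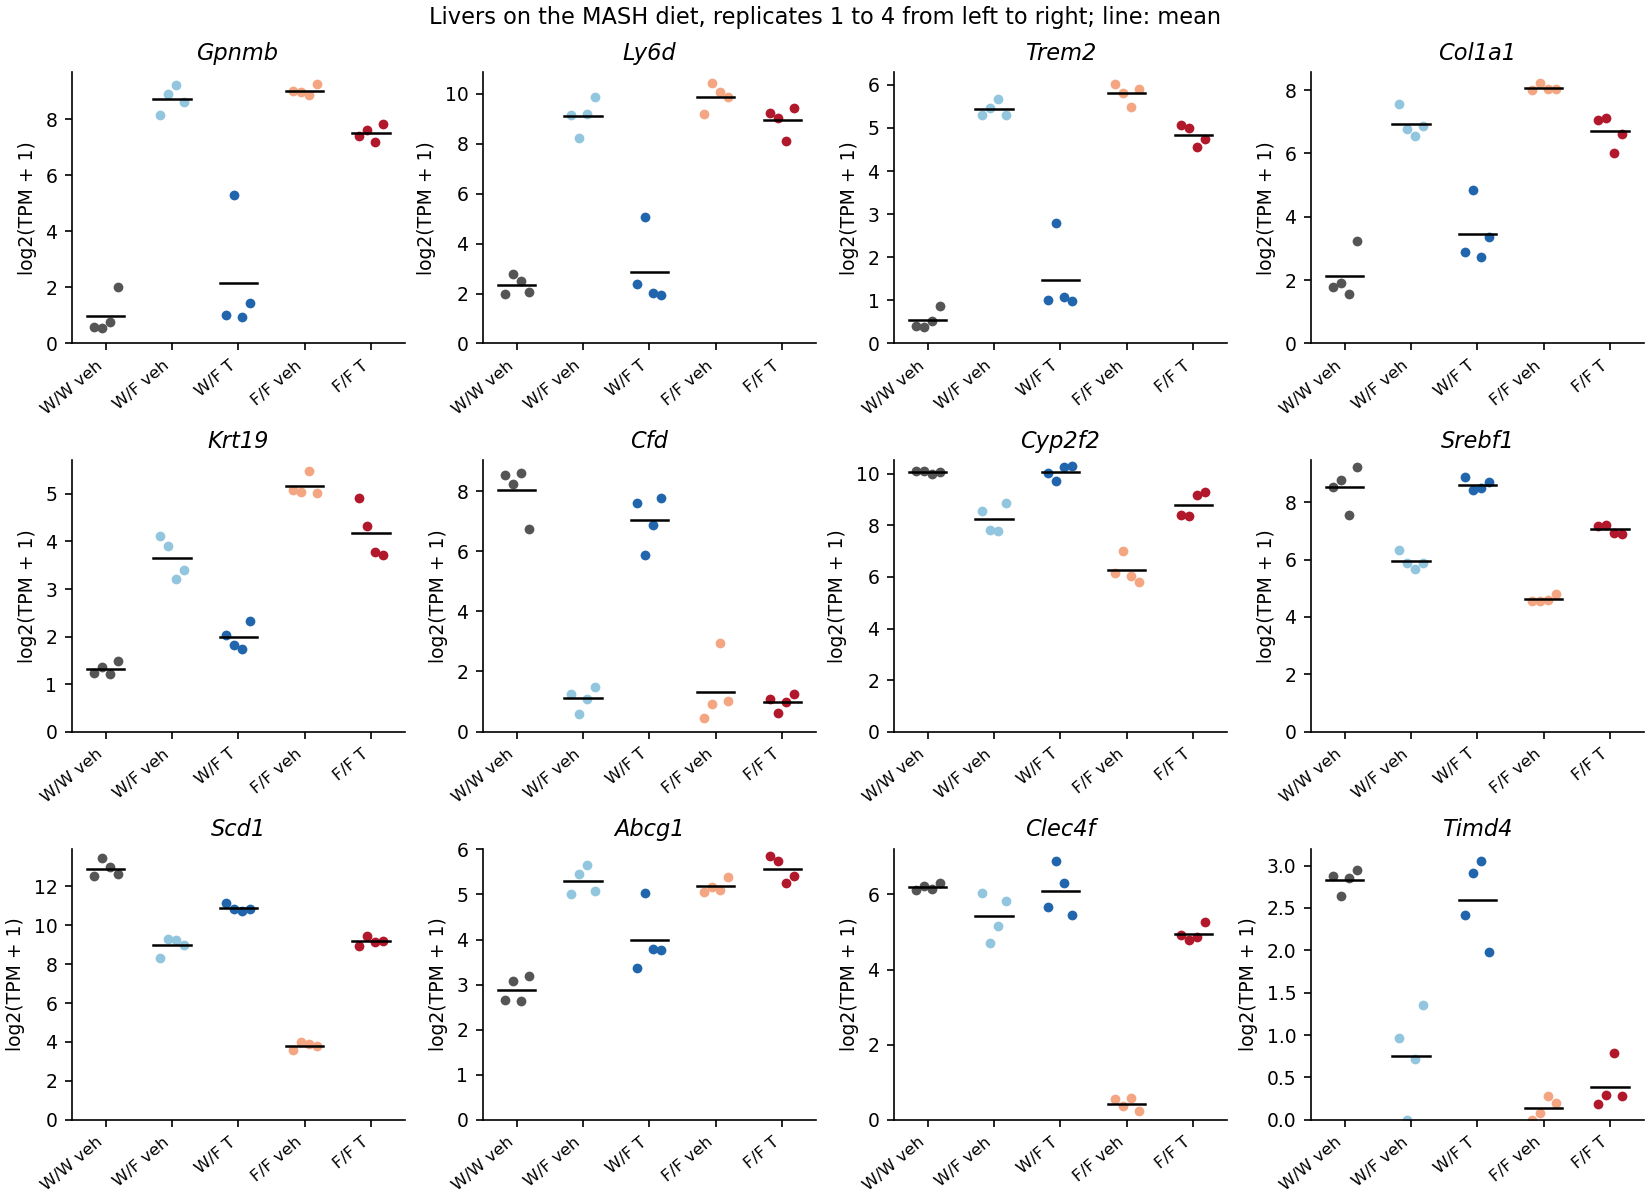
log2(TPM + 1) of 12 genes in each library of 5 groups on the MASH diet (W/W, W/F and F/F with vehicle, W/F and F/F with T0901317), with the group mean as a line. Gpnmb, Ly6d, Trem2 and Col1a1 lie nearer to W/W with T0901317 in W/F than in F/F, where part of the vehicle difference is also gone for Gpnmb, Trem2 and Col1a1, and Scd1 and Clec4f rise with T0901317 in F/F.

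Genes of lipid-associated macrophages, the scavenging macrophages of fatty liver, had the highest median of the lists examined. Of 18 tested, 17 were higher in F/F and 16 in both scalings, with a median log2 fold change of 2.77 (rescaled 2.27), and 12 of the 16 that were raised disease genes (75%, beside 43.0% of all) were normalised in W/F and not in F/F. In whole liver, fewer cells of a type and less RNA per cell cannot be told apart. Gpnmb, a membrane glycoprotein of lipid-laden macrophages, stood at 1.00, 37.7, 0.931 and 1.74 TPM in W/F livers and at 165, 194, 143 and 225 TPM in F/F livers. All F/F livers were higher, and W/F replicate 2 lay between its group and F/F. The log2 fold change was 5.32 ± 0.53 (SE, adjusted p = 5.48e-09), rescaled 4.90, and its vehicle means were 435 TPM for W/F, 519 TPM for F/F and 1.18 TPM for W/W. The T0901317 response of Gpnmb differed between the genotypes by 5.02 (adjusted p = 5.61e-05).

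Trem2, the lipid receptor that marks these cells, stood at 1.0195, 5.89, 1.12 and 0.98 TPM in W/F livers and at 32.6, 31.2, 22.5 and 25.9 TPM in F/F livers (log2 fold change 3.38, rescaled 2.97). Spp1, osteopontin, stood at 90.3 to 265 TPM in W/F livers and at 700.1 to 1582 TPM in F/F livers (2.85, rescaled 2.32). Chow-fed F/F livers already stood at 681 to 933 TPM for Spp1. Cd9, a tetraspanin, and Lgals3, galectin 3, were higher by 2.65 and 3.71 (rescaled 2.14 and 3.21). None of these 4 genes overlapped between the groups, and F/F lay wholly above W/F for 46.4% of all genes too. Markers of monocytes and macrophages in general were higher for 15 of 18, and for 12 in both scalings. Their summed TPM was 1441 in W/F replicate 2, 499 to 585 in the other W/F livers and 1879 to 2661 in F/F. Ccr2, the chemokine receptor of recruited monocytes, stood at 0.406, 5.70, 0.384 and 0.478 TPM in W/F livers and at 7.13, 8.61, 4.32 and 5.01 TPM in F/F livers, and only W/F replicate 2 overlapped with F/F (1.75, rescaled 1.43).

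The promoters of the raised genes were searched for binding motifs of AP-1, a factor induced by stress and growth signals, and of PU.1, the macrophage lineage factor. RefSeq promoters (GRCm38.p6, 250 bases before to 50 after the start) matched 452 of the 644 raised genes normalised in W/F and not in F/F. The AP-1 letters TGANTCA on either strand occurred in 50 of the 452 (11.1%), in 7 of 60 lowered genes with a promoter (11.7%), in 6.74% of 10846 tested genes with a promoter and in 7.81% of all 32851 promoters. The PU.1 letters GAGGAAGT on either strand occurred in 43 of the 452 (9.51%), in 3 of the 60 lowered genes (5%), in 3.94% of tested genes and in 3.20% of all promoters. The direct repeat bound by LXR, with 4 bases between its repeats, occurred in 1 of the 452 and in 15 of all promoters. These 3 were picked from 18 letter patterns after their counts were seen, and a match is a description of letters, not of binding. The AP-1 pattern and its counts allow any base at N. The Trem2 match TGAATCA differs there from the TGAGTCA of Sprr1a and Mmp12. The stretches below lie before the start of genes whose values are given here, 5′ to 3′ on the gene's strand, with the AP-1 or PU.1 letters in capitals.
Sprr1a, chr3:92485976-92486072, minus strand, AP-1: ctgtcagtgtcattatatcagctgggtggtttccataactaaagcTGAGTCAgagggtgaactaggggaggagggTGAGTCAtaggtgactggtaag
Trem2, chr17:48346347-48346400, plus strand, AP-1: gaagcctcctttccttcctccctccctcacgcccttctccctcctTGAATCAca
Mmp12, chr9:7347285-7347373, plus strand, AP-1: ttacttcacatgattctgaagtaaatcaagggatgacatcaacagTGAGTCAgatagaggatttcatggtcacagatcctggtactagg
Mmp12, other start, chr9:7344264-7344361, plus strand, PU.1: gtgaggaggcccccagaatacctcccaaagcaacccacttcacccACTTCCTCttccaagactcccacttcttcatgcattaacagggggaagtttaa

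Resident Kupffer cell genes behaved differently from the other macrophage genes. On vehicle, Clec4f, a lectin found on Kupffer cells, averaged 0.354 TPM in F/F, against 45 TPM in W/F and 72.3 TPM in W/W. With T0901317 it stood at 50.05, 117, 77.8 and 43.1 TPM in W/F livers and at 29.3, 26.6, 28.2 and 37.3 TPM in F/F livers, so all F/F livers remained below all W/F livers (log2 fold change -1.12, rescaled -1.64, adjusted p = 0.0008) although the response was larger in F/F by 3.88 (adjusted p = 2.16e-07). Vsig4, a complement receptor of Kupffer cells, went from 1.13 TPM on vehicle to 15.4 to 28.8 TPM in F/F, which overlapped with 13.1 to 54.1 TPM in W/F (-0.35, rescaled -0.85). Cd5l, a secreted macrophage protein and LXR target, went from 1.58 TPM to 95.7 to 168 TPM in F/F, within the W/F range of 44.9 to 367 TPM.

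Vsig4 and Cd5l were not called in the deposited scaling, and without W/F replicate 2 the log2 fold changes were 0.02 for Vsig4 and 0.90 for Cd5l, the latter called. Timd4, a receptor for dying cells on long-resident Kupffer cells, was low in F/F already on chow. Chow-fed livers held 0 to 0.0563 TPM of Timd4 in F/F and 1.65 to 3.47 TPM in W/F. With T0901317 Timd4 stood at 4.36, 6.55, 7.27 and 2.93 TPM in W/F livers and at 0.134, 0.226, 0.730 and 0.212 TPM in F/F livers, without overlap (-2.20 ± 0.23 SE, rescaled -2.48, adjusted p = 1.25e-08). The interaction for Timd4 was -1.58 on the log2 scale (adjusted p = 0.00151). Of 11 Kupffer genes tested, 5 were lower in both scalings. Besides Clec4f and Timd4 these were Cd163, Folr2 and Kcna2, named after their values were seen.

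Inflammatory genes were also high in W/F replicate 2. Of 32 acute phase and inflammation genes 19 were higher in F/F (59.4%, beside 58.5% of all genes), 15 of them in both scalings (46.9%, beside 21.7%). Without W/F replicate 2 there were 26 higher in the deposited scaling and 21 after rescaling. Of 25 interferon response genes 9 were higher (36%, beside 58.5% of all genes) and 5 in both scalings (20%, beside 21.7%), so neither share was above that of all genes. Without that library 22 were higher in the deposited scaling, where 10461 of all genes were called and 93.4% of those calls were higher. After rescaling 11 of the 25 were higher without it. The interaction was called for 0 of the 25 with all libraries kept. The summed TPM of the inflammation list was 10914 in W/F replicate 2, 2099 to 3619.9 in the other W/F livers and 4507 to 6113 in F/F livers. Ccl2, the chemokine that recruits monocytes, stood at 0.855, 24.9, 0.951 and 0.585 TPM in W/F livers and at 24.3, 20.3, 11.1 and 32.8 TPM in F/F livers (log2 fold change 2.63, rescaled 2.24). Only W/F replicate 2 overlapped with F/F for Ccl2, and it did so too for Lcn2, an acute phase protein that binds bacterial iron carriers, with 471 TPM against 356 to 829 TPM in F/F and 5.62 to 12.5 TPM in the other W/F livers.

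Saa1, serum amyloid A, stood at 26.8, 1188, 34.6 and 17.0 TPM in W/F livers and at 121 to 225 TPM in F/F livers, and it was not called (1.27, adjusted p = 0.38). Without W/F replicate 2 the log2 fold change of Saa1 was 2.64 (adjusted p = 0.0498). Tnf, a cytokine made by activated macrophages, was not called either (0.68, adjusted p = 0.117), but was called at 1.38 without W/F replicate 2 and at 0.98 without F/F replicate 3. The antigen presentation genes H2-Ab1 and Cd74 were higher in F/F by 1.81 and 2.06 (rescaled 1.29 and 1.53), although both were also high in W/F replicate 2, where Cd74 reached 1372 TPM. Of 13 dendritic cell and MHC class II genes, 12 were higher and 5 in both scalings. Neutrophil genes were higher for 11 of 12, and 9 in both scalings. They already differed on vehicle, with a median log2 fold change of 1.19 (rescaled 0.98) there and 0.92 (rescaled 0.75) with T0901317. Their summed TPM was 27.97 in W/F replicate 2, 7.39 to 10.6 in the other W/F livers and 30.1 to 104.7 in F/F. Ngp, a granule protein, stood at 0.177 to 0.381 TPM in all W/F livers and 1.48 to 6.99 TPM in F/F. For 12 T and NK cell genes and 9 B and plasma cell genes, 1 of each list was higher in both scalings.

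Scar matrix genes were mostly higher in F/F. Among the raised disease genes, 5 of 12 collagens (41.7%) and 13 of 23 matrix enzyme genes (56.5%) were normalised in W/F and not in F/F, beside 43.0% of all raised disease genes. Of 17 collagen genes 15 were higher in both scalings (median log2 fold change 1.89, rescaled 1.38), of 29 matrix proteases, inhibitors and crosslinkers 24, and of 22 genes of TGF-beta and stellate cell activation 20. Col1a1, the main chain of scar collagen, stood at 6.36, 27.5, 5.66 and 9.20 TPM in W/F livers and at 132, 139, 63.8 and 96.5 TPM in F/F livers, without overlap (3.25 ± 0.39 SE, rescaled 2.75, adjusted p = 9.79e-08). Its vehicle means were 126 TPM for W/F, 269 TPM for F/F and 3.89 TPM for W/W. The share left was 0.28 in W/F and 0.77 in F/F, so Col1a1 narrowly missed the limit of 0.25 in W/F, and its response differed between the genotypes by 2.11 (adjusted p = 0.00896). Col1a2 and Col3a1 also lay just above that limit in W/F, with shares left of 0.26 and 0.27, and Col4a1, a basement membrane chain, lay below it at 0.16.

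Timp1, an inhibitor of matrix proteases, stood at 0.299, 6.18, 0.488 and 0.321 TPM in W/F livers and at 41.8, 24.7, 14.7 and 26.5 TPM in F/F livers, without overlap (3.67, rescaled 3.32). Mmp12, a macrophage elastase, stood at 0.598 to 7.97 TPM in W/F livers and at 17.0 to 34.8 TPM in F/F livers (3.24, rescaled 2.85). Lox, which crosslinks collagen, stood at 0.0552 to 0.813 TPM in W/F livers and at 1.44 to 3.06 TPM in F/F livers (1.38, rescaled 1.16). Pdgfrb, the growth factor receptor of activated stellate cells, was 1.95 higher (rescaled 1.47), and here W/F replicate 2 at 5.71 TPM lay among the other W/F livers at 3.83 to 6.68 TPM. Acta2, smooth muscle actin, was called in the deposited scaling alone (1.24, rescaled 0.79). Of 19 stellate cell markers, 14 were higher in both scalings, and their summed TPM was 349 to 505 in W/F and 774 to 1346 in F/F.

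Bile duct genes were higher for 17 of 18, all 17 in both scalings, with a median of 1.73 (rescaled 1.37) and a summed TPM of 903 to 1675 in W/F and 2934 to 5174 in F/F. Krt19, a duct keratin, stood at 3.10, 2.56, 2.33 and 4.05 TPM in W/F livers and at 29.2, 19.02, 12.8 and 12.1 TPM in F/F livers, without overlap (2.20 ± 0.22 SE, rescaled 1.74, adjusted p = 5.48e-09). W/F replicate 2 was not raised for Krt19, nor for Epcam, an adhesion protein of ducts and progenitors, which stood at 3.82 to 5.92 TPM in W/F livers and at 20.9 to 52.1 TPM in F/F livers (2.64, rescaled 2.16). Krt7 and Sox9 were higher by 1.59 and 1.74 (rescaled 1.30 and 1.26). These duct genes already differed on vehicle, where Krt19 was 1.51 higher in F/F (adjusted p = 1.7e-05), and the interaction for Krt19 was not called (0.69, adjusted p = 0.11). Of 16 fetal liver and tumour-linked genes 13 were higher in both scalings, H19, Ly6d and Sprr1a among them.

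Cell cycle genes were higher for 24 of 25, and 20 in both scalings. Mki67, a marker of dividing cells, stood at 0.378, 2.54, 0.161 and 0.312 TPM in W/F livers and at 7.12, 5.14, 3.21 and 5.78 TPM in F/F livers, without overlap (1.89, rescaled 1.6). Chow-fed F/F livers already stood at 5.22 to 9.61 TPM for Mki67. Ccnb1 and Cdk1, which drive entry into mitosis, were higher by 1.77 and 1.67 (rescaled 1.52 and 1.32). Lysosomal genes were higher for 23 of 25, with 16 in both scalings, and the cathepsin gene Ctsd stood at 199 to 393 TPM in W/F livers and at 497 to 699.7 TPM in F/F livers (1.35, rescaled 0.81). Of 24 genes of the Nrf2 antioxidant response 11 were higher in both scalings and 1 lower. Nqo1, a quinone reductase, was 1.48 higher (rescaled 0.97) and Hmox1, heme oxygenase, 1.79 higher (rescaled 1.27), although W/F replicate 2 at 59.2 TPM overlapped with F/F for Hmox1. Of 21 genes of the unfolded protein and integrated stress response 5 were higher in both scalings (23.8%, beside 21.7% of all genes), among them Ddit3 (1.11, rescaled 0.60).

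Of 13 general hepatocyte markers, 1 was higher and 1 lower in both scalings and 11 were not called in the deposited scaling, with a median log2 fold change of -0.03 (rescaled -0.56). The largest decreases of all genes were in the major urinary proteins, pheromone carriers of male mouse liver: Mup7 stood at 305, 52.9, 3835 and 2977 TPM in W/F livers and at 2.19, 2.02, 5.70 and 1.69 TPM in F/F livers (log2 fold change -7.50, rescaled -7.95, adjusted p = 8.37e-07). The W/F livers themselves spanned a wide range for Mup7, with replicates 1 and 2 low. Lack of overlap between the groups was a condition for the largest decreases too. Mup11, Mup14, Mup15, Mup17 and Mup19 ranged from -6.79 to -4.70. Between 77.8% and 100% of the exon sequence of these 6 genes also occurs in other genes, so reads may be split among them and single values are uncertain. Mup20 was not called (0.48, adjusted p = 0.251), with 6233 to 17094 TPM in W/F livers and at 13813 to 17615 TPM in F/F livers.

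Cfd, complement factor D, a protease best known from fat cells, stood at 193, 58.0, 115 and 219 TPM in W/F livers and at 1.11, 0.531, 0.982 and 1.40 TPM in F/F livers (-6.05 ± 0.57 SE, rescaled -6.44, adjusted p = 2.18e-09). All F/F livers stayed at the level of vehicle-treated W/F and F/F livers for Cfd, which averaged 1.21 and 2.26 TPM, whereas vehicle-treated W/W livers averaged 292 TPM. On chow Cfd was low in every genotype, at 0.286 to 11.8 TPM in W/W, 1.17 to 12.1 TPM in W/F and 2.00 to 3.30 TPM in F/F. The W/W vehicle level is thus not the chow level for Cfd. Of 8 fat cell genes listed, Cfd included, 4 were tested, of which 2 were higher and 2 lower. Their summed TPM, to which Cfd belongs, was 101 to 257 in W/F and 51.1 to 83.1 in F/F. Of the 3 defining fat cell markers, Adipoq and Lep were listed at 0 in all 8 livers and Plin1 at 0 to 0.105 TPM. Their part in the result was not tested. Elovl3, a fatty acid elongase, stood at 69.6, 36.9, 227 and 157 TPM in W/F livers and at 3.52, 1.15, 3.56 and 8.69 TPM in F/F livers (-4.44, rescaled -4.90). Hsd3b5, a steroid dehydrogenase of male liver, stood at 5.59 to 235 TPM in W/F livers and at 0.188 to 0.416 TPM in F/F livers (-5.53, rescaled -5.84). Serpina1e, an antiprotease of the alpha-1-antitrypsin family, was -3.77 (rescaled -4.30), with 34.6% of its exon sequence shared with other genes.

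Of 34 cytochrome P450 and conjugation enzymes, 18 were lower and none higher in F/F, all 18 in both scalings, against 4.06% of all genes lower in both. These enzymes were already lower in F/F on vehicle. Their median log2 fold change was -0.55 (rescaled -0.75) on vehicle and -0.53 (rescaled -1.05) with T0901317. The interaction was called for 8 of the 34, with a higher response in F/F for 6. Cyp2e1, a P450 of central hepatocytes, stood at 12186, 8866, 10371 and 11367 TPM in W/F livers and at 2586, 3632, 6058 and 2978 TPM in F/F livers, without overlap (-1.56, rescaled -2.09, adjusted p = 5.25e-06). Cyp2f2, a P450 of periportal hepatocytes, stood at 845 to 1257 TPM in W/F livers and at 332 to 625 TPM in F/F livers (-1.27, rescaled -1.80). Of 28 urea cycle and amino acid enzymes 17 were lower in both scalings, among them Cps1, the first step of the urea cycle (-0.62, rescaled -1.15), and Glul, glutamine synthetase (-0.69, rescaled -1.22).

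Of 25 bile acid genes 12 were lower and 2 higher in both scalings. Their median log2 fold change was -0.31 (rescaled -0.51) already on vehicle and -0.31 (rescaled -0.84) with T0901317. Cyp8b1, the sterol 12-hydroxylase, stood at 206 to 424 TPM in W/F livers and at 54.0 to 163 TPM in F/F livers (-1.65, rescaled -2.18), and Slc10a1, the bile acid uptake carrier, at 498 to 729 TPM and 206 to 389.8 TPM (-1.32, rescaled -1.85). Cyp7a1, the rate-limiting enzyme of bile acid synthesis, overlapped between the groups and was called only after rescaling (-0.62, rescaled -1.14). Of 27 genes of fatty acid oxidation 9 were lower and 2 higher in both scalings. Cyp4a14, an inducible fatty acid hydroxylase, stood at 63.4 to 232 TPM in W/F livers and at 5.27 to 35.8 TPM in F/F livers (-3.14, rescaled -3.64). Of 29 secreted proteins 8 were lower in both scalings. Alb, albumin, stood at 25073 to 43685 TPM in W/F livers and at 27040 to 41111 TPM in F/F livers and was called only after rescaling (-0.18, rescaled -0.71).

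**Figure D5:**
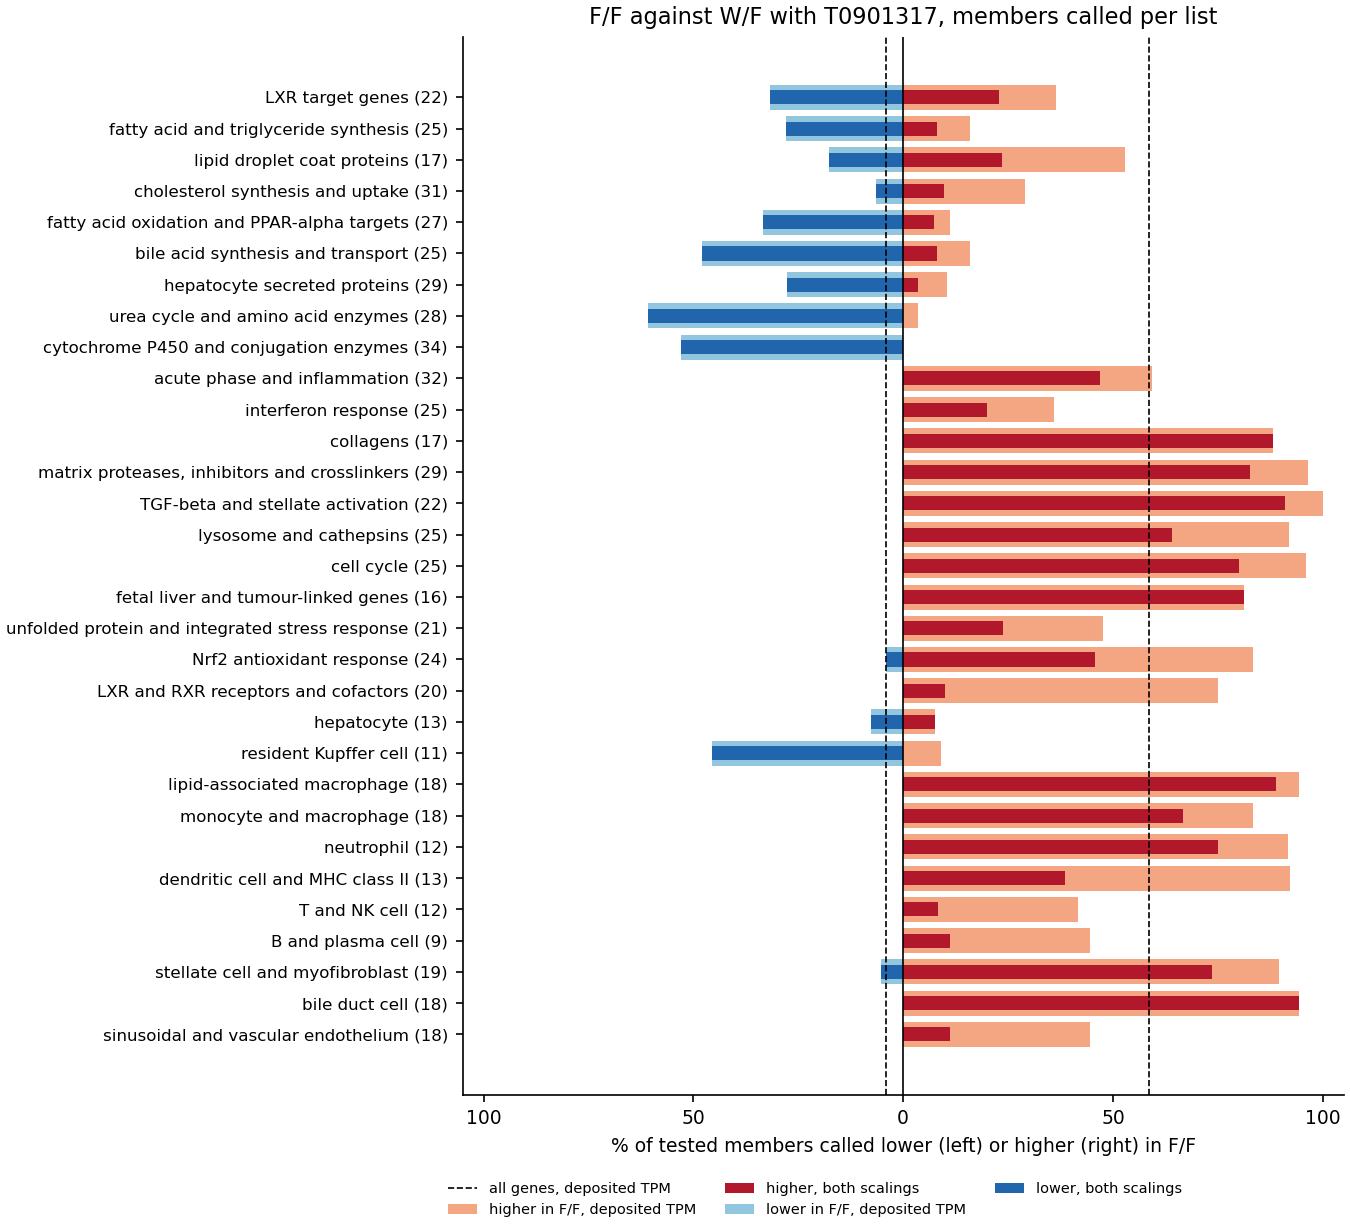
Percent of the tested members of each list (number in brackets) called higher (right) or lower (left) in F/F than in W/F with T0901317, in the deposited scaling (wide bars) and in both scalings (narrow bars). Dashed lines give the same percent over all genes in the deposited scaling, 58.5% higher and 4.08% lower.

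Some disease genes did not follow the main pattern. The share left was at least 0.5 in both genotypes for 18 raised and 33 lowered genes that counted as normalised in neither. Slco1a4, an organic anion carrier, stood at 48.5 to 70.7 TPM in W/F livers and at 65.8 to 113 TPM in F/F livers with T0901317, with shares left of 1.07 and 1.06. It was not called between the genotypes (0.53, adjusted p = 0.0856, and 0.0479 without F/F replicate 1). Gadd45b, a stress response gene, had shares left of 0.96 and 1.2, and Ugt1a9 and Raet1d, which share 62.0% and 55.8% of their exon sequence with other genes, stood above their vehicle level in F/F. Among lowered genes, Me1 of the fatty acid synthesis list and Insig1 of the cholesterol list had shares left of 0.92 and 0.59 in W/F and 0.86 and 0.56 in F/F. Neither was called between the genotypes (-0.15 and -0.29), and Insig1 was called at -0.51 without W/F replicate 2.

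At the other end, 7 raised and 14 lowered genes were normalised in both genotypes, with a share left of at most 0.25 in each. Ranked by mean TPM over vehicle-treated W/F and F/F livers, the first 4 lowered ones were the carboxylesterases Ces3a, Ces1d and Ces2a and the P450 Cyp2c29. Ces2a stood at 1058 to 1426 TPM in W/F livers and at 626 to 933 TPM in F/F livers with T0901317, above the 380.3 TPM of vehicle-treated W/W livers in both. Cyp2c29 stood at 1578 to 2771 TPM in W/F livers and at 638 to 1428 TPM in F/F livers, from 348 and 75.6 TPM on vehicle. Ces2a and Cyp2c29 were nevertheless lower in F/F than in W/F (-0.68 and -1.19, rescaled -1.22 and -1.72). Ces3a and Ces1d were called as well (-0.57 and -0.65), with adjusted p of 0.0366 and 0.0354, and each call was lost without any of 4 single libraries, F/F replicates 1 and 4 for both, W/F replicates 3 and 4 for Ces3a and W/F replicates 1 and 4 for Ces1d.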

How the data were processed

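Liver RNA was sequenced from 36 male mice in 9 groups of 4, grouped by the genotype, diet and treatment in the labels. The authors deposited 1 table of TPM per gene. The submitters' processing notes name Trimmomatic 0.36, STAR 2.5.2b and featureCounts of Subread 1.5.2, with GRCm38; the annotation release is not given in the sources used here. Of 49315 listed genes, 174 have no symbol. TPM keep no counts, but with transcript lengths 93.7% to 95.7% of low genes fell within 0.1 of whole reads (20% by chance), which gave depths of 18.1 to 35.8 M reads; at low levels this depth limits precision.

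From the TPM, log2(TPM + 1) of 16638 genes, those that reached 1 TPM in 4 or more libraries, was fitted with limma 3.58.1 (R 4.3.3) as 9 group means with a mean-variance trend. All adjusted p are limma's after Benjamini-Hochberg adjustment over all genes tested, two-sided, with a threshold of 0.05. The pseudocount makes fold changes of low genes smaller. A rescaled fit used TPM divided by median-of-ratios factors from 13950 genes. The fit was tested on simulated data of 15476 genes for F/F against W/F with T0901317. It recovered 89% of 100 genes changed by 1 and 97% of 100 changed by 2 on the log2 scale, with 10 false calls. The simulated noise was independent between libraries, and the changed genes were drawn from the better expressed ones. The simulation held no shift of the median gene and no outlying library, so its false calls do not measure errors from either.

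Named genes are a selection from the 10 largest differences each way (called in both scalings, at least 5 TPM, no overlap), the 8 largest in each disease class, the 4 most abundant normalised in both or neither, and key genes of 20 process and 13 marker lists. The members, lists and rules were chosen with earlier results of these data known. Shared exon sequence is the percent of 50-base stretches that also occur in another gene. Promoters were taken from RefSeq, GRCm38.p6.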

Additional observations from a re-analysis of the deposited data

Results flagged for a closer look

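In groups of 4 libraries, 206 sets of values were examined for a single library far from the other 3 on the log2(TPM + 1) scale, and 20 had one, 17 of them W/F replicate 2 with T0901317; chance gives about 1 in 20. In that library the macrophage genes Gpnmb (37.7 TPM), Trem2 (5.89 TPM), Cd9 (36.1 TPM), Lgals3 (81.9 TPM) and Ccr2 (5.70 TPM) stood far above the other W/F livers. The same held for the inflammatory genes Lcn2 (471 TPM), Saa1 (1188 TPM), Ccl2 (24.9 TPM) and Ubd (251 TPM), the matrix genes Timp1 (6.18 TPM) and Mmp12 (7.97 TPM), the proliferation genes Mki67 (2.54 TPM) and Top2a (1.85 TPM), the lysosomal gene Ctsd (393 TPM) and Ly6d (32.1 TPM). Slc10a1 was far below the other W/F livers there, at 498 TPM. The median share left over raised disease genes was 0.463 in that library. Elsewhere, Raet1d was low in W/F replicate 3 at 12.8 TPM, and in F/F replicate 3 Lgals3 at 124 TPM and Ddit3 at 22.1 TPM were low.

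The T0901317 response differed between F/F and W/F for 3191 genes by limma's interaction test. On the log2 scale, F/F minus W/F, the difference was 5.02 for Gpnmb, 5.34 for Ly6d, 2.11 for Col1a1 and 1.70 for Abcg1, genes for which W/F fell closer to the W/W vehicle level. For Scd1 it was 3.44, and for the Kupffer cell genes Clec4f, Vsig4 and Cd5l it was 3.88, 3.71 and 6.93, from low vehicle levels in F/F. For Timd4 it was -1.58.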

How the results depend on the processing

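Between 9102 and 10503 genes were called when each of the 8 libraries was left out in turn, and 6689 after rescaling. The raised genes normalised in W/F and not in F/F numbered 492 to 943 with 1 library left out, 1200 with a pseudocount of 0.1, 1002 with voom on recovered reads, 1364 in the deposited scaling alone and 143 when disease genes and the reference came from chow-fed mice. The lowered ones numbered 82 to 122 with 1 library left out, 293 after rescaling, 167 with voom and 32 with the chow reference. The interaction was called for 1908 to 4127 genes with 1 library left out and for 5156 with array quality weights. After rescaling, members called higher numbered 5 for LXR targets, 4 for lipid droplets, 3 for cholesterol, 5 for interferon response, 5 for unfolded protein response, 11 for Nrf2 and 2 for receptors; members called lower numbered 14 for fatty acid synthesis, 20 for fatty acid oxidation, 19 for secreted proteins and 28 for P450 enzymes. Without W/F replicate 2, interferon genes called higher numbered 22 in the deposited scaling and 11 after rescaling. Of 101 genes, the sign changed after rescaling for Abca1 (-0.024), Nr1h3 (-0.52), Cd5l (-0.27) and Mup20 (-0.048). Nr1h3 was -0.0022 with array quality weights, -0.11 with voom and -0.0034 to -0.064 without F/F replicate 2 (-0.021), F/F replicate 4, W/F replicate 1 or W/F replicate 4 (-0.0064), and up to 0.057 in the other leave-outs. Over the leave-outs Cd5l ran from -0.11 (without W/F replicate 4) to 0.90 (without W/F replicate 2), and Vsig4 from -0.64 to 0.020 (without the same libraries). Apart from rescaling and array weights, whose own construction changes the scale or the weights, the cause was not tested. Replicate numbers did not pair the libraries (correlations of -0.13, 0.07, 0.08 and -0.06); with a replicate block 10478 genes were called, 3432 for the interaction, and 644 raised and 96 lowered genes were normalised in W/F only.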

Other observations

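Some genes of W/F livers with T0901317 lay away from W/W livers with T0901317. Ly6d averaged 120.1 TPM in W/W livers with T0901317, above the 2.81 to 32.1 TPM of W/F livers, and Scd1 averaged 21770 TPM, above the 1704 to 2253 TPM of W/F livers. In W/W livers with T0901317, Serpina1e averaged 78.01 TPM, below the 1424 to 7655 TPM of W/F livers and the 4035 TPM of W/W livers on vehicle.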
